A study of Xenopus laevis with 12 samples.

Results

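The ADAM and ADAMTS proteases and the ADAMTS-like proteins were followed by RNA sequencing of whole heads from tadpoles of the African clawed frog, Xenopus laevis. Members were every row of the count files whose gene symbol starts with adam, adamts or adamtsl and a digit, with the copies from both subgenomes (homeologs, .L and .S) kept apart. This gave 57 of 37018 rows, of which 21 were ADAM, 27 ADAMTS and 9 ADAMTSL rows. They carried 37 base symbols, and 20 of these had both homeologs, 12 a .L copy only and 5 a .S copy only. There were 4 groups of 3 libraries each. Control heads came from wild-type tadpoles at NF stage 45 (Nieuwkoop and Faber staging) or NF stage 47, both early feeding stages. The other groups came from tadpoles of the same stages that had been kept as neurulae, from NF stage 14 to NF stage 26, in 90 µM thioridazine. Thioridazine is a phenothiazine antipsychotic that blocks dopamine receptors, and per the labels the exposure served to produce malformed faces. Control and exposed embryos alike were held at 18 °C during that window and at 14 °C before and after it, so treated heads were sampled after the drug had been removed. The labels call the libraries biological replicates without naming clutches or the number of heads in each, so the spread behind each p-value is that between these libraries, which may be technical in part.

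ADAMs are membrane-anchored proteins with a metalloprotease and a disintegrin domain, and the active ones cut the ectodomains of growth factors, cadherins, ephrins and Notch from the cell surface. ADAMTS proteases are secreted, carry thrombospondin repeats, and cut proteoglycans, procollagens and other matrix proteins, while ADAMTS-like proteins have the repeats without a protease domain and bind fibrillin microfibrils in mammals. In Xenopus, cranial neural crest cells, which build most of the face, need ADAM cleavage of cadherin-11 to migrate, and adam33 is the gene of that protease, ADAM13. The stages measured here lie after crest migration, when the cartilages of the face are already laid down.

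Libraries held 11998636 to 16933777 counts, of which 5162 to 9126 fell on members. Levels are given in CPM (counts scaled to TMM-adjusted library size), which grows with transcript length, so levels of different genes are not compared. After the filter on low counts 53 members were tested (18 ADAM, 26 ADAMTS and 9 ADAMTSL). The other 4 were adam21.L with 80 counts in all 12 libraries together, adamts2.L with 55, adam28.3.S with 1 and adam28.2.L with 0. A library with 0 counts of a gene allows a level of up to 0.173 to 0.254 CPM, depending on its depth, by counting error alone. Of the tested members, 41 had at least 10 counts in every library and 9 had a mean under 2 CPM. Markers of cartilage, muscle, neurons, fibroblasts, pigment cells, photoreceptors and lens were all detected, as a whole head should hold. Liver markers were detected too, with sums that differed widely between libraries of a group. At stage 45 they summed to 15.9 to 185.7 CPM in controls and 9.41 to 366.7 CPM in treated heads. At stage 47 the sums were 396.2 to 861.2 CPM and 11.9 to 327.9 CPM. In stage 45 libraries numbered 2, the summed level of all members was 429.6 CPM in the control and 450.6 CPM in the thioridazine library, against 506.2 to 556.1 CPM in the other 10. Control replicate 2 of stage 45 held the lowest level of all 12 libraries for 18 of 53 members. The counts of called members were therefore also computed without both stage 45 libraries numbered 2. Sums, overlaps between groups and intervals are given with all 12 libraries only.

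Thioridazine was compared with control at each stage, and as the mean of both stage effects, to ask whether malformed heads hold different amounts of these protease transcripts. No member passed the threshold (edgeR, adjusted p under 0.05). At stage 45, 0 of 53 members were called, with 0% of 27050 genes called. At stage 47, 0 members were called beside 0.0739% of all genes, and over both stages 0 members beside 0.144%. The contrast of the stage 47 with the stage 45 treatment effect also called 0 members and 0% of all genes, with 0 members and 575 genes at an unadjusted p under 0.05. At that unadjusted threshold stood 3 of 53 members at stage 45, beside 1441 of 27050 genes (5.33%). At stage 47 it was 0 of 53 members beside 953 of 27050 genes. Over both stages it was 6 of 53 members beside 1866 of 27050 genes (6.9%). DESeq2 called 0 members in these comparisons, with 77, 69 and 148 genes called at stage 45, at stage 47 and over both. Replicate numbers were also taken to pair the control and treated libraries, although the labels name no pairs. With the number as a block within each stage, 268, 171 and 599 genes were called, and again 0 members.

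The members' treatment effects were small and spread to both sides. At stage 45, 29 members were higher and 24 lower in treated heads, with a median log2 fold change of 0.06 against 0.01 over all genes tested. At stage 47, 27 were higher and 26 lower (median 0.03 against 0.00 over all genes). Precision set how much could be seen. The 95% interval of the log2 fold change lay wholly within 2-fold for 39 of 53 members at stage 45, for 41 at stage 47 and for 51 over both stages. It lay within 1.5-fold for 15, 15 and 30 members. For the remaining members a larger difference lies inside the interval. Every control library lay to 1 side of every treated library for 6 members at stage 45 (11.3%, against 9.55% of all genes) and for 4 at stage 47 (7.55%, against 9.6%).

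**Figure D1:**
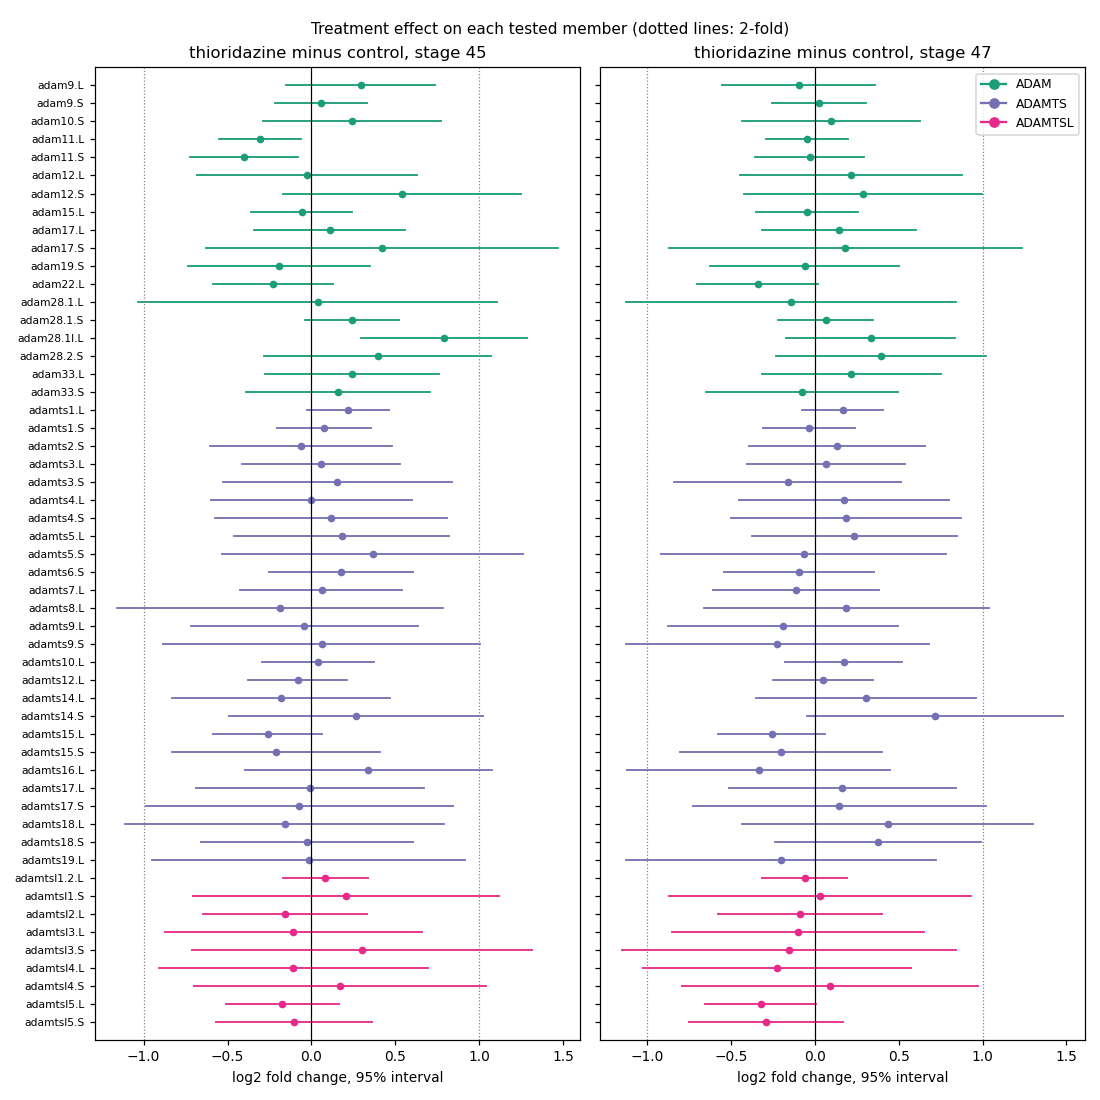
Log2 fold change between thioridazine and control heads (points) with its 95% interval (lines) for the 53 tested members at stage 45 (left) and stage 47 (right), coloured by family, from the edgeR fit; dotted lines mark a 2-fold change. Points lie on both sides of 0 in each family, and adam17.S and adam28.1.L are among the 3 members with the widest intervals at each stage.

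Between stages a few members passed. Going from stage 45 to stage 47, control heads had 3 called members of 53 beside 6.24% of all genes, and thioridazine heads had 1 beside 4.86%. The called genes were the homeologs of adamts1, which rose, and adamts10.L, which fell. Stage groups did not overlap for 11 members in controls (20.8%, against 25.1% of all genes) and for 13 in treated heads (24.5%, against 25.2%). These shares are close to or below those of all genes. The sign of the stage change was the same in control and treated heads, which share no library, for 43 of 53 members (81.1%) and for 76.4% of all genes. By family, 12 of 18 ADAM rows were lower at the later stage in controls and 16 of 18 in treated heads. Of 26 ADAMTS rows, 15 and 19 were higher. ADAMTSL rows were higher for 7 of 9 in each condition. Over all 27050 genes tested, 13909 were lower in controls and 13744 in treated heads. Homeologs count as separate rows here. The summed level of ADAM rows was 221.8 ± 25.6 CPM in controls (SD, n = 3) at stage 45 and 203.3 ± 10.2 CPM at stage 47, ranges that overlapped. That of ADAMTS rows was 209 ± 25.4 CPM and 256.6 ± 9.32 CPM, with no overlap. Of the latter sums, the adamts1 homeologs held 72.3 and 115.4 CPM. Without them the other 25 ADAMTS rows summed to 107.6 to 158.5 CPM in stage 45 controls and 129 to 156 CPM in stage 47 controls, which overlapped.

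**Figure D2:**
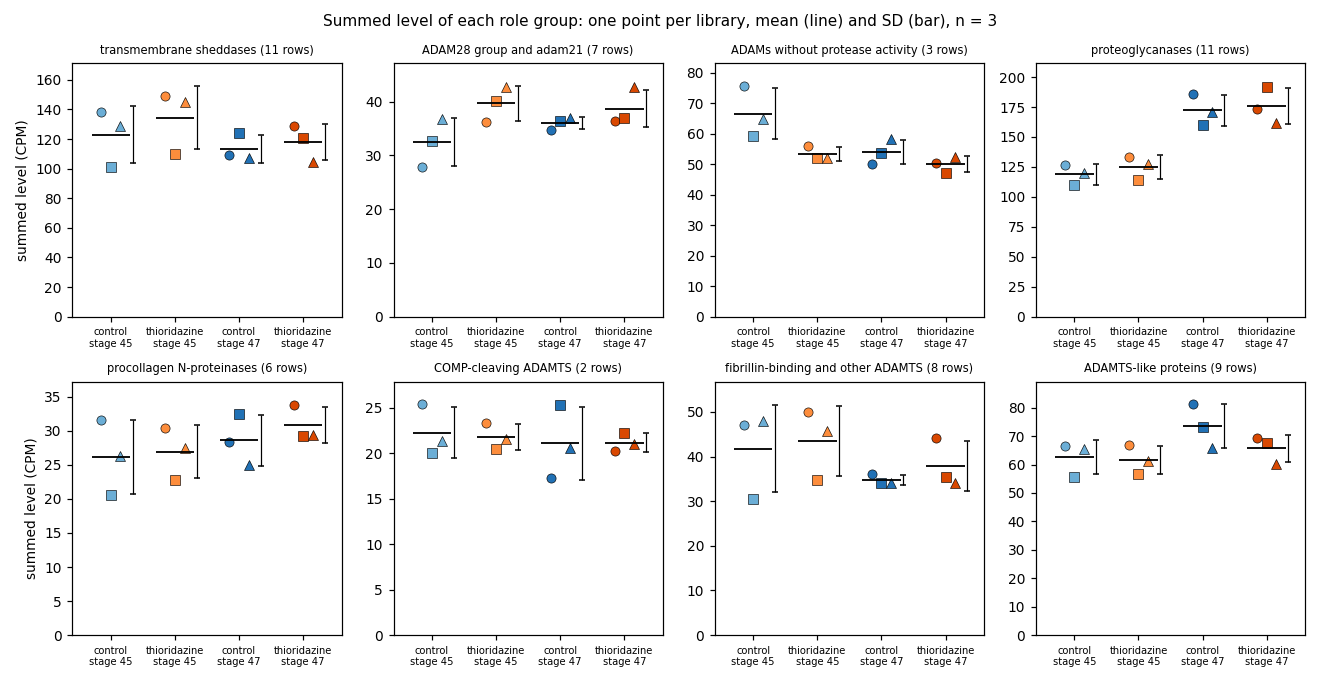
Summed level in CPM of the members of each role group, with a point per library (circle, square and triangle for replicates 1, 2 and 3), the mean as a line and the SD as a bar (n = 3). The proteoglycanases sit at 109.8 to 133.3 CPM in the 6 stage 45 libraries and at 159.9 to 191.9 CPM in the 6 stage 47 libraries, and no other group is apart between the stages in both conditions. Without both adamts1 rows the other 9 proteoglycanases overlap between stages in each condition (36.4 to 54.5 and 49.5 to 64.0 CPM in controls, 36.3 to 52.9 and 40.5 to 61.5 CPM in treated heads).

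The transmembrane sheddases were represented by 11 rows, all tested. None was called in any comparison. Treated heads were higher for 8 of 11 at stage 45 (median log2 fold change 0.16) and for 7 of 11 at stage 47 (0.09). From stage 45 to 47, 8 of 11 were lower in controls (median -0.20, against -0.01 over all genes) and 11 of 11 in treated heads (-0.19, against -0.01). Of 27050 genes tested, 13909 were lower in controls and 13744 in treated heads. Among the 11 in treated heads, adam12.L (log2 fold change -0.002) and adam10.S (-0.007) hardly differed. For adam10.S (gene 399187), whose product starts Notch cleavage and sheds cadherins, stage 45 controls measured 49.4, 23.4 and 43.2 CPM and treated heads 51.3, 34.4 and 51.6 CPM. Replicate 2 was the lowest in each of these groups, and the groups overlapped. Stage 47 controls measured 41.5, 48.5 and 38.1 CPM and treated heads 50.8, 49.3 and 36.5 CPM. The log2 fold change with treatment was 0.24 at stage 45 (95% interval -0.29 to 0.77) and 0.09 at stage 47 (-0.44 to 0.62). Both intervals, from the fit without pairing, include no change and end short of a 2-fold change. With replicate blocks inside each stage the log2 fold change was 0.28 at stage 45 (unadjusted p = 0.0105, adjusted p = 0.221, edgeR). At stage 47 it was 0.09 with these blocks (unadjusted p = 0.394, adjusted p = 0.887, edgeR).

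The other major sheddase, adam17, releases TNF-alpha and ligands of the EGF receptor. Its .L copy had a mean of 6.51 ± 1.34 CPM in stage 45 controls and 7.03 ± 1.5 CPM in treated heads, and 5.81 ± 0.861 against 6.39 ± 0.707 CPM at stage 47. Its .S copy ranged from 5 counts in control replicate 2 of stage 45 to 61 counts elsewhere, giving the widest interval at stage 47 (-0.87 to 1.23). With this spread between libraries the intervals of adam17.S reach beyond a 2-fold increase at each stage. The gene of ADAM13, adam33.L (gene 386623), measured 12.2, 8.4 and 12.4 CPM in stage 45 controls and 16, 8.5 and 14.7 CPM in treated heads. At stage 47 the values were 7.73, 7.91 and 8.63 CPM and 12.5, 7.22 and 8.39 CPM. The groups overlapped at each stage, and the log2 fold change was 0.24 (-0.28 to 0.76) and 0.22 (-0.32 to 0.75). The second copy, adam33.S, had log2 fold changes of 0.16 and -0.08, with opposite signs at the stages. Both copies were lower at stage 47 than at stage 45 in controls (log2 fold change -0.45 and -0.33, adjusted p = 0.325 and 0.514, edgeR) and in treated heads (-0.47 and -0.57, adjusted p = 0.314 and 0.246).

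Further sheddases act in the crest or in muscle and bone. Of these, adam9 is a widely expressed sheddase of the crest, adam12 (meltrin alpha) is known from muscle and bone precursors in mammals, and adam19 (meltrin beta) is needed for heart development in mice and works in the Xenopus crest. For adam9.S (gene 108712678) stage 45 controls stood at 12.8, 11.1 and 11.9 CPM and stage 47 controls at 9.23, 9.04 and 10.4 CPM. Treated heads stood at 13.5, 11.7 and 12.1 CPM and 9.65, 9.91 and 9.58 CPM. The stages did not overlap in either condition, yet the log2 changes of -0.32 and -0.36 did not pass (adjusted p = 0.162 and 0.137, edgeR). The .L copy differed with stage by -0.08 on the log2 scale in controls and -0.48 in treated heads, and its difference between the treatment effects (-0.39, unadjusted p = 0.208, adjusted p = 1, edgeR) was not called. For adam12.S all treated libraries of stage 45 (2.25, 2.3 and 2.52 CPM) lay above all controls (1.39, 1.66 and 1.79 CPM), a log2 fold change of 0.54 with adjusted p = 1 (edgeR). At stage 47 the adam12.S groups overlapped, and adam12.L had log2 fold changes of -0.03 and 0.21 at stages 45 and 47. Row adam19.S had log2 fold changes of -0.19 and -0.06 with treatment and -0.54 (controls) and -0.40 (treated) with stage. Row adam15.L, a sheddase of endothelium and other tissues in mammals, stayed within 19.8 to 33.8 CPM in all 12 libraries.

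The ADAM28 group held 7 rows with adam21.L, and 4 were tested. ADAM28 is a lymphocyte metalloprotease in mammals. The rows adam28.1 and adam28.2 lie side by side in the gene table on both subgenomes, and adam28.3.S follows on .S. If their sequences are alike, reads could be split among them, so the level of each is uncertain. Sequences were not compared, and adam28.1l.L is not among these neighbours. The member with the smallest p for treatment was adam28.1l.L (gene 100158289). Stage 45 controls held 2.69, 2.58 and 3.53 CPM and treated heads 4.36, 5.99 and 4.98 CPM. All treated libraries lay above all controls, by a log2 fold change of 0.79 (SE 0.23, unadjusted p = 0.00398, adjusted p = 0.604, edgeR). At stage 47 the values were 2.91, 3.01 and 2.8 CPM and 4.12, 2.69 and 4.15 CPM. There replicate 2 of the treated heads was below all 3 controls, and the log2 fold change was 0.33 (adjusted p = 1, edgeR). Over both stages it was 0.56 (adjusted p = 0.362), and with replicate blocks inside each stage it had an adjusted p of 0.0852 at stage 45 and 0.0663 over both, still above the threshold.

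The other tested rows of that group were adam28.1.S, adam28.2.S and adam28.1.L. In adam28.1.S (gene 108712715) stage 45 controls held 22.1, 27.6 and 31.8 CPM and treated heads 29.1, 32 and 35.5 CPM, which overlapped (log2 fold change 0.24, adjusted p = 1, edgeR). At stage 47 it was 30.2 ± 1.42 against 31.7 ± 3.44 CPM. All 4 tested rows of the group had positive log2 fold changes with treatment at stage 45. That of adam28.1.L was only 0.04 (SE 0.50, unadjusted p = 0.942, edgeR), on 3 to 19 counts a library over all groups. At stage 47, 3 of the 4 rows were higher in treated heads, and adam28.1.L was lower (log2 fold change -0.14). In adam28.2.S the stage 45 treated libraries (1.26, 1.25 and 1.29 CPM) lay above the controls (1.23, 0.666 and 0.983 CPM), and both stage comparisons separated as well, with log2 fold changes of 0.64 in controls and 0.64 in treated heads (adjusted p = 0.25 and 0.245, edgeR). Myeloid markers summed to 78.5 to 98.5 CPM in stage 45 controls and 98.5 to 138.1 CPM in treated heads, ranges that all but met, with 7 of 10 higher. Of these 10 rows, 0 were called under treatment at either stage or over both. At stage 47 they summed to 93.8 to 134.4 CPM and 108.8 to 151.6 CPM, which overlapped, with 9 of 10 higher. Their part in the ADAM28 values was not tested.

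**Figure D3:**
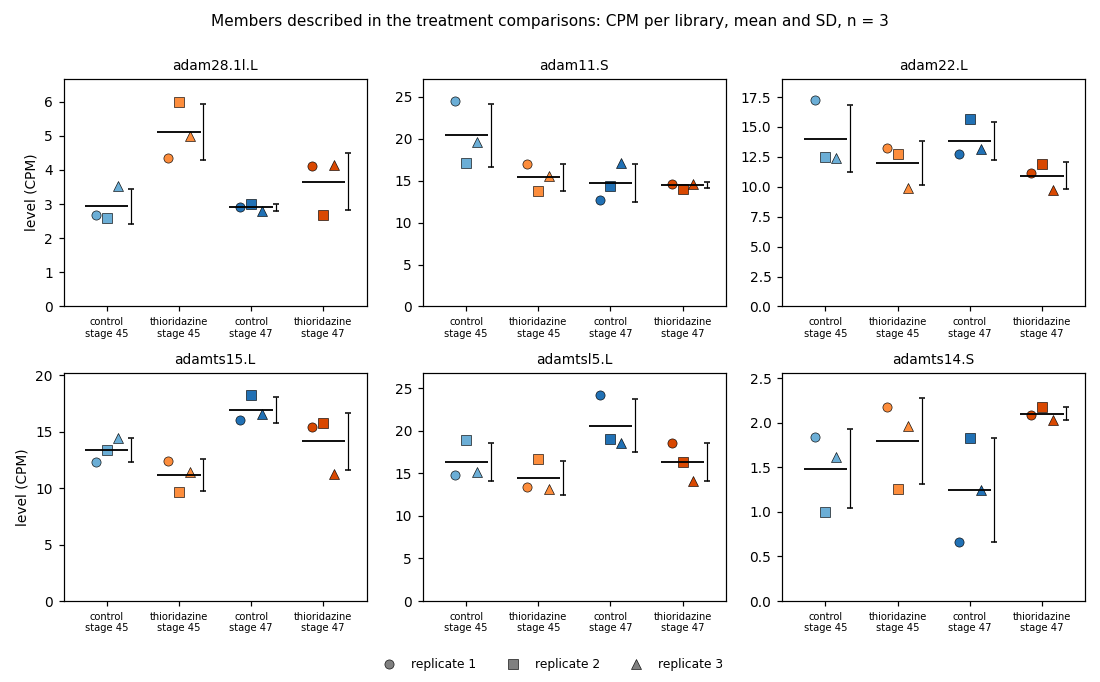
Level in CPM of 6 members described in the treatment comparisons, with a point per library (circle, square and triangle for replicates 1, 2 and 3), the mean as a line and the SD as a bar (n = 3); every axis starts at 0. The stage 45 groups are apart for adam28.1l.L and adam11.S, and the stage 47 groups are apart for adam22.L, adamts15.L and adamts14.S, but none of the 6 passed the threshold in any treatment comparison.

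The ADAMs without protease activity were adam11 and adam22. Their products lack the zinc-binding site of the active ADAMs and, in mammals, hold LGI ligands at synapses and along axons. In adam11.L (gene 386622) stage 45 controls measured 33.8, 29.5 and 32.8 CPM and treated heads 25.7, 25.6 and 26.5 CPM. All treated libraries lay below all controls, by 0.31 on the log2 scale (SE 0.11, unadjusted p = 0.017, adjusted p = 0.763, edgeR). In adam11.S the values were 24.5, 17.1 and 19.7 CPM and 16.9, 13.7 and 15.6 CPM, again with no overlap (log2 fold change -0.40, adjusted p = 0.763). The fit with replicate blocks inside each stage gave adjusted p = 0.12 for .L and 0.1 for .S at stage 45 (unadjusted p = 0.003 and 0.00206, edgeR). At stage 47 both copies overlapped between treatments, at 25.4 ± 2.15 against 24.6 ± 3.45 CPM for .L and 12.7, 14.3 and 17.1 against 14.7, 14 and 14.7 CPM for .S. Stage 45 controls thus had the highest mean of the 4 groups in both copies. The change from stage 45 to 47 in controls, which shares those libraries with the treatment comparison, was -0.33 on the log2 scale for .L and -0.47 for .S (adjusted p = 0.0986 and 0.0828). In treated heads that log2 change was -0.08 and -0.10. The difference between the treatment effects did not pass either (0.26 and 0.37, unadjusted p = 0.132 and 0.104, adjusted p = 1, edgeR). Its unadjusted p with replicate blocks inside each stage was 0.0639 and 0.0311 (adjusted p = 0.885 and 0.8, edgeR).

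For adam22.L (gene 386621) stage 47 controls held 12.7, 15.7 and 13.2 CPM and treated heads 11.1, 11.9 and 9.75 CPM, without overlap (log2 fold change -0.34, unadjusted p = 0.0621, adjusted p = 1, edgeR). At stage 45 the groups overlapped at 17.2, 12.5 and 12.4 and 13.3, 12.8 and 9.9 CPM, with a log2 fold change of -0.23. Over both stages adam22.L differed by -0.28 on the log2 scale (adjusted p = 0.634, edgeR). That adjusted p was 0.101 with replicate blocks inside each stage (unadjusted p = 0.0038, edgeR). Hence all 3 rows of the role group had negative log2 fold changes with treatment at each stage, none past the threshold. At stage 47 those of adam11.L and adam11.S were only -0.05 and -0.03 (unadjusted p = 0.681 and 0.835, edgeR). The LGI ligands and their synaptic and axonal partners had 0 calls, with 7 of 9 tested rows lower in treated heads at stage 45 and 9 of 9 at stage 47. Neuron markers summed to 1243 to 1306 CPM in stage 45 controls and 1051 to 1280 CPM in treated heads, and to 1428 to 1460 CPM and 1176 to 1441 CPM at stage 47, with 10 of 11 lower at each stage. From stage 45 to 47 in controls, 10 of 11 neuron markers were higher. Over the same stages adam11.L and adam11.S were lower (log2 fold change -0.33 and -0.47), and adam22.L hardly differed (-0.015). The part of neurons in the ADAM values was not tested. Of the 11 neuron markers 0 were called under treatment, and their sums overlapped between treatments at each stage. Whether neuron transcripts differ with treatment is thus not settled. Fewer neurons could also not be told from less RNA per neuron in whole heads.

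The proteoglycanases cut aggrecan, versican and related proteoglycans of cartilage and soft matrix. They held both copies of adamts1, the members called higher at stage 47. Of 11 rows, 9 were higher at stage 47 in controls (median log2 fold change 0.50, against -0.01 over all genes) and 9 in treated heads (0.39, against -0.01). Of 27050 genes tested, 13141 were higher in controls and 13306 in treated heads. Called were 2 of the 11 rows in controls and 1 in treated heads, beside 6.24% and 4.86% of all genes. For adamts1.L (gene 495679), a secreted protease needed for ovulation and organ growth in mice, stage 45 controls held 43.1, 44.2 and 39.9 CPM and stage 47 controls 80.0, 61 and 71.4 CPM. Treated heads held 51.4, 47.7 and 48.9 CPM and 71.5, 90.1 and 76.5 CPM. Every stage 47 library was above every stage 45 library. The rise was 1.67-fold in controls (0.74 on the log2 scale, SE 0.11, adjusted p = 0.00394) and 1.61-fold in treated heads (0.69, SE 0.11, adjusted p = 0.00531, edgeR), and it was called under every alternative tried.

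The second copy, adamts1.S (gene 108709218), rose in controls from 29.1, 29.3 and 31.2 CPM to 48.8, 35 and 50.2 CPM (1.49-fold, log2 fold change 0.58, adjusted p = 0.0203, edgeR). In treated heads it stood at 29, 30.0 and 35.3 CPM and 40.4, 45.3 and 44.8 CPM, apart but not past the threshold (log2 fold change 0.47, adjusted p = 0.055). The control call was lost when control replicate 1 or 3 of stage 45 or control replicate 1 or 3 of stage 47 was left out (adjusted p from 0.0532 to 0.0924, log2 fold change from 0.48 to 0.61). The log2 difference of the stage change between control and treated heads was -0.05 for .L and -0.11 for .S, with adjusted p = 1 for each (edgeR). The treatment effect on adamts1.L was small. At stage 45 its treated libraries all lay above the controls (log2 fold change 0.22, 95% interval -0.03 to 0.46, adjusted p = 0.995), at stage 47 they overlapped (0.17, -0.07 to 0.41), and over both stages the unadjusted p was 0.0309 (adjusted 0.635).

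**Figure D4:**
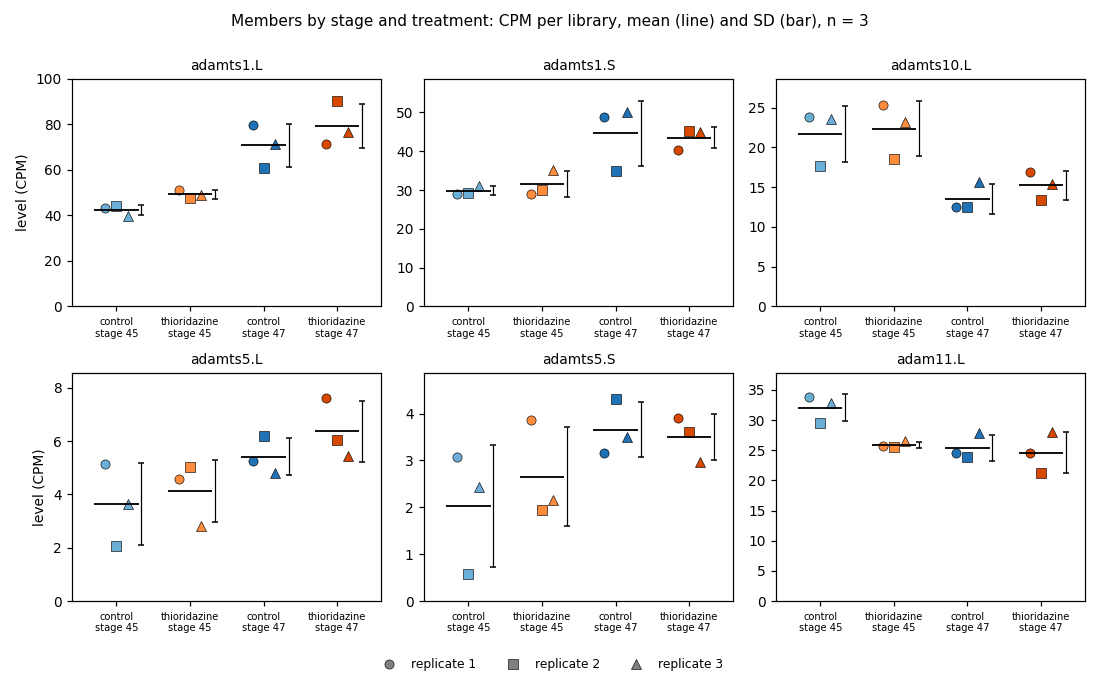
Level in CPM of both copies of adamts1 and adamts5, of adamts10.L and of adam11.L in each library (circle, square and triangle for replicates 1, 2 and 3), with the mean as a line and the SD as a bar (n = 3); every axis starts at 0. Both adamts1 copies sit higher and adamts10.L lower in all stage 47 libraries than in the stage 45 libraries of the same condition, and adam11.L is highest in stage 45 controls.

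Next to adamts1 on each subgenome, with no protein-coding gene between them in the gene table, lies adamts5, the main aggrecanase of mouse cartilage. Its copies were also higher at stage 47, without a call. In adamts5.L (gene 108707889) controls held 5.15, 2.08 and 3.64 CPM and then 5.24, 6.2 and 4.82 CPM, and treated heads 4.57, 5.02 and 2.83 CPM and then 7.63, 6.05 and 5.42 CPM. The control groups overlapped and the treated groups did not overlap, with log2 fold changes of 0.57 and 0.63 (adjusted p = 0.281 and 0.248, edgeR). In adamts5.S the log2 fold changes were 0.83 and 0.40, the first resting in part on control replicate 2 of stage 45 at 0.583 CPM, a library of 7 counts for this gene. With treatment adamts5.S had a log2 fold change of 0.36 at stage 45 and -0.07 at stage 47, and adamts5.L 0.18 and 0.23.

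A further neighbouring pair of proteoglycanases was adamts8.L and adamts15.L. Row adamts15.L (gene 108696381), a versican-cutting protease in mammals, held 12.3, 13.4 and 14.4 CPM in stage 45 controls against 12.4, 9.69 and 11.4 CPM in treated heads. At stage 47 it held 16, 18.2 and 16.6 against 15.5, 15.8 and 11.3 CPM, where all treated libraries lay below the controls. The log2 fold change was -0.26 at stage 45 and -0.26 at stage 47, and -0.26 over both (unadjusted p = 0.0278, adjusted p = 0.615, edgeR). Its homeolog adamts15.S had log2 fold changes of -0.21 and -0.20. From stage 45 to 47 in controls the log2 fold change of these homeologs was 0.34 and 0.39, not called. Row adamts8.L, at 0.369 to 2.02 CPM, had log2 stage changes of 0.76 and 1.14 (adjusted p = 0.321 and 0.146, edgeR), which did not pass. The copies of adamts9, which with its relatives cuts versican in the mouse, had log2 treatment effects of -0.04 and -0.19 for .L and 0.06 and -0.23 for .S. Row adamts4.L, the other aggrecanase, was lower at stage 47 in controls without overlap (log2 fold change -0.50, adjusted p = 0.346, edgeR), while adamts4.S differed by 0.03.

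Markers of other tissues changed with stage beside these genes. Fibroblast and perichondrium markers summed to 4713 to 6404 CPM in stage 45 controls and 8456 to 9779 CPM at stage 47, with 7 of 12 rows called higher in controls and 6 in treated heads. Cartilage markers summed to 2326 to 2856 CPM and then 1344 to 2147 CPM, with 12 of 12 lower and 1 called. The part of these shifts in the stage change of adamts1 was not tested.

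The procollagen N-proteinases adamts2, adamts3 and adamts14 trim the amino ends of fibrillar procollagens, and adamts3 also activates VEGF-C in mammals. None of the 5 tested rows was called. In adamts2.S (gene 108713291) controls held 8.85, 7.91 and 5.96 CPM at stage 45 and 9.89, 12.6 and 6.9 CPM at stage 47, and treated heads 9, 7.04 and 5.66 and 12.2, 12 and 7.88 CPM. The stages overlapped in each condition (log2 fold change 0.38 and 0.57). Rows adamts3.L and adamts3.S had log2 treatment effects from -0.16 to 0.15. In adamts14.S stage 47 controls held 0.665, 1.83 and 1.25 CPM and treated heads 2.09, 2.18 and 2.03 CPM, without overlap (log2 fold change 0.72, 95% interval -0.05 to 1.48, unadjusted p = 0.0626, adjusted p = 1, edgeR), on 8 to 32 counts a library. Its homeolog adamts14.L had a log2 fold change of 0.30 there. Of 20 tested rows of collagens, fibrillins and other matrix, 17 were higher and 3 lower at stage 47 in controls. The collagens called higher were col1a1.S, col1a2.S and col3a1.L (log2 fold change 0.76, 0.80 and 0.57, adjusted p = 0.0382, 0.0173 and 0.0258, edgeR).

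Among the fibrillin-binding and other ADAMTS, adamts10.L (gene 108712792) was called. In humans, loss of ADAMTS10 causes Weill-Marchesani syndrome, a disorder of fibrillin microfibrils with short stature and lens defects. It fell in controls from 23.9, 17.6 and 23.5 CPM to 12.5, 12.5 and 15.7 CPM (-0.68 on the log2 scale, SE 0.16, adjusted p = 0.0236, edgeR). In treated heads it stood at 25.3, 18.5 and 23.2 CPM and 16.9, 13.3 and 15.4 CPM, apart but not past the threshold (log2 fold change -0.55, adjusted p = 0.0622). The control call was lost without control replicate 1 or 3 of stage 45 or control replicate 1 or 2 of stage 47 (adjusted p from 0.0685 to 0.0999, log2 fold change from -0.63 to -0.61). Lens markers, with 4 of 6 rows called lower in stage 47 controls (328.1 to 638.6 and then 240.2 to 352.8 CPM), had 0 of 6 rows called in treated heads (277.3 to 341 and then 266.6 to 419.5 CPM). Their part in the adamts10.L values was not tested.

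The rest of that group showed no call. Its relative adamts6.S, which acts on fibrillin matrix in mice, held 8.93, 6.06 and 7.62 CPM in treated heads of stage 45 and 4.66, 5.46 and 5 CPM at stage 47 (log2 fold change -0.58, adjusted p = 0.124), and overlapped between stages in controls (-0.31). In adamts18.L, a gene of eye and lung development in mammals, treated heads held 1.48, 0.766 and 2.15 CPM and then 4.79, 3.11 and 2.2 CPM (log2 fold change 1.2, adjusted p = 0.123, edgeR), on 9 to 71 counts a library. The change in controls was 0.60 on that scale. Row adamts16.L had a log2 fold change of 0.34 with treatment at stage 45 and -0.34 at stage 47, a difference of -0.68 (unadjusted p = 0.197, adjusted p = 1, edgeR). In adamts17.L, a second Weill-Marchesani gene in humans, all treated libraries of stage 47 (4.46, 4.62 and 4.15 CPM) lay above the controls (3.99, 3.9 and 3.93 CPM), by 0.16 on the log2 scale. The heart valve gene adamts19.L and the pair adamts7.L and adamts12.L, which cut COMP of cartilage in mammals, had log2 fold changes from -0.20 to 0.06 with treatment.

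The ADAMTS-like proteins had 9 tested rows and no call. At stage 47, 7 of 9 were lower in treated heads (median log2 fold change -0.10, against 0.00 over all genes), and at stage 45, 5 of 9. For adamtsl5.L (gene 108711437) stage 47 controls held 24.2, 19 and 18.6 CPM and treated heads 18.6, 16.4 and 14.2 CPM, which overlapped at the edge (log2 fold change -0.32, unadjusted p = 0.0551, adjusted p = 1, edgeR). At stage 45 they held 14.8, 18.9 and 15.2 and 13.4, 16.7 and 13.2 CPM, and over both stages the log2 fold change was -0.25 (adjusted p = 0.691). Replicate blocks inside each stage gave adamtsl5.L an adjusted p of 0.231 at stage 47 (unadjusted p = 0.00471, edgeR). Over both stages they gave 0.0848 (unadjusted p = 0.00276, edgeR), still above the threshold. Its homeolog adamtsl5.S had log2 fold changes of -0.10 and -0.29. Row adamtsl1.2.L, a punctin gene, stood at 17.6 to 23.2 CPM in all 12 libraries, with a 95% interval of -0.17 to 0.19 for the log2 fold change over both stages. It was higher in stage 47 controls without overlap (log2 fold change 0.19, adjusted p = 0.382, edgeR). Row adamtsl1.S, at 0.583 to 1.97 CPM, had log2 fold changes of 0.21 and 0.03 with treatment. The other punctin rows, adamtsl3.L and adamtsl3.S, had log2 treatment effects of -0.11 and 0.30 at stage 45 and -0.10 and -0.15 at stage 47. For adamtsl4.L and adamtsl4.S, a gene of human lens dislocation, these were -0.11 and 0.17, then -0.23 and 0.09. Row adamtsl2.L, mutated in human geleophysic dysplasia, had log2 treatment effects of -0.16 and -0.09.

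Homeologs divided the reads of a gene unequally. Over all libraries the .L copy took 61.6% of the adamts1 reads, 62% for adamts5, 62.4% for adam11, 70.1% for adam17 and 86.3% for adamts9, and only 2.57% for adam28.1. These shares depend on the lengths of the copies and on how reads shared by them were counted, neither of which is given in the sources used here. For adamts1 the share was 56.1 to 66.5% in the 12 libraries, so both copies were read throughout. For adamts15 it was 48.6 to 65.2% in the 12 libraries, with means of 55.2 to 56.1% in the 4 groups. With homeologs summed before the fit, treatment again called 0 of the members.

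**Figure D5:**
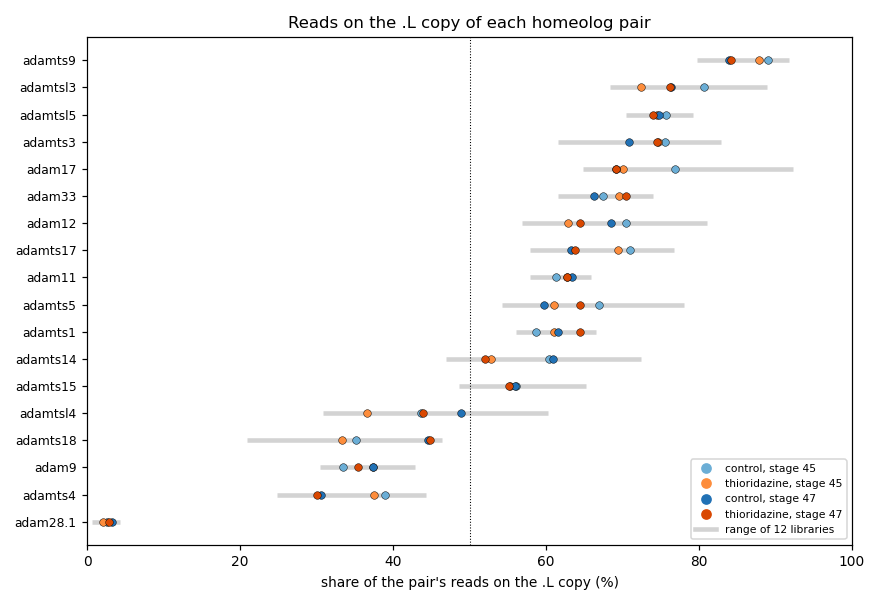
Share of a homeolog pair's reads that fell on the .L copy, in percent, for the 18 pairs with both copies tested; points are the 4 groups of stage and treatment and grey bars span the 12 libraries. The shares run from 2.57% for adam28.1 to 86.3% for adamts9 over all libraries.

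Of the genes around the proteases, none of the 7 lists had a called row under treatment at either stage or over both (edgeR). Values in parentheses beside these genes are log2 fold changes. The metalloprotease inhibitors timp2 and timp3 gave 4 rows with 0 calls in any comparison. The smallest treatment p belonged to timp3.L at stage 45 (-0.19, adjusted p = 1) and timp2.L at stage 47 (0.09, adjusted p = 1, edgeR). The ADAM17 and ADAM10 escorts, iRhoms and tetraspanins that carry the proteases to the surface, gave 16 rows. Row tspan15.L, an ADAM10 escort, rose with stage in controls (0.43, adjusted p = 0.0222) and tspan5.L, another, in treated heads (0.53, adjusted p = 0.0424, edgeR). Under treatment tspan15.L had the smallest p of the list at stage 45 (0.29, adjusted p = 0.693) and tspan5.L at stage 47 (0.22, adjusted p = 1). The proprotein convertases, which remove the inhibitory prodomain, gave 7 rows and 0 calls, the smallest p being that of pcsk5.L at stage 45 (0.25, adjusted p = 0.943) and pcsk6.L at stage 47 (0.14, adjusted p = 1).

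Substrates and ligands also had 0 calls under treatment. Of 35 rows of shed ligands and receptors, igfbp5.S, a binding protein of insulin-like growth factors, rose with stage in controls (0.41, adjusted p = 0.0278), and the EGF receptor ligand areg.L rose in treated heads (0.96, adjusted p = 0.0195, edgeR). With treatment notch1.L had a log2 fold change of 0.40 at stage 45 (adjusted p = 0.764) and dll1.S, a Notch ligand, 0.37 at stage 47 (adjusted p = 0.862). The 8 rows of proteoglycans and their link proteins had 0 calls, with vcan.L (versican) at 0.39 at stage 45 and hapln3.S at 0.17 at stage 47 (adjusted p = 1 for each, edgeR). Among 20 tested rows of collagens, fibrillins and other matrix, 4 were called higher with stage in controls, the collagens named above and fbn2.L (0.79, adjusted p = 0.02). In treated heads col1a2.S and col3a1.L rose (0.74 and 0.52, adjusted p = 0.0273 and 0.043). With treatment the smallest p of that list was that of col1a1.S at stage 45 (0.42, adjusted p = 0.948) and fbn1.L at stage 47 (-0.46, adjusted p = 1, edgeR). For the LGI list these were lgi1.L (-0.32, adjusted p = 0.744) and kcna2.L (-0.73, adjusted p = 1). Over both stages the smallest p of any list was that of tspan15.L (0.22, adjusted p = 0.418).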

How the data were processed

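RNA of whole heads was sequenced in 12 libraries as 100 bp single-end reads, with a kit that does not keep the strand, per the labels' protocols, so overlapping antisense genes cannot be told apart. The deposited files hold raw counts of reads per gene, which the authors made with HTSeq after Trimmomatic and HISAT2, per the submitters' processing notes, which also name DESeq2. For versions, genome build and reads shared by near-identical copies nothing is given in the sources used here, and no coordinates are printed. Symbols came from a gene table of RefSeq (Xenopus_laevis_v10.1), used for names and gene order only, which named 33597 identifiers and left 3421 unnamed.

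Counts were fitted in R 4.3.3 with edgeR 4.0.16 (TMM, filterByExpr by group, robust quasi-likelihood, a coefficient for each of the 4 groups), tested on simulated data, with 6 contrasts. The Benjamini-Hochberg adjustment ran over 27050 genes tested, and genes under 0.05 are called. Levels in CPM use TMM-adjusted library sizes. Standard errors come from the F statistic, and 95% intervals from the fit's degrees of freedom. A level behind 0 counts is limited by 3 counts of the library. This limit covers counting error alone, while the intervals cover counting error and the spread between libraries as the fit sees them.

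Replicate numbers were taken to pair control with treated libraries. Deviations of same-numbered libraries from the group means correlated at 0.336, 0.586 and 0.326 at stage 45. At stage 47 the values were 0.18, 0.225 and 0.471, and at both stages all were over 0.1. Libraries of different numbers were not compared in this way and the labels name no pairs, so the pairing is not settled. The fit behind the main p-values and intervals does not use it. Spearman correlations within a group were 0.979 to 0.989.

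Members with values are those called, the 5 of smallest p in each contrast, the 5 of highest CPM in each family, and the homeologs of a fixed list of ADAM, ADAMTS and ADAMTSL genes; of each pathway list, those called or else of smallest p per treatment contrast. Members and lists were chosen with earlier results of these data known. Names of members standing apart between groups were added after their values were seen. Alternatives were RLE and upper-quartile scaling, DESeq2 1.42.0, other filters, the replicate number as a block, a fit of only the groups compared, homeologs summed, a 1.2-fold threshold and leaving out each library. A run without both stage 45 libraries numbered 2, and sums without the adamts1 rows, were chosen after seeing the data.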

Additional observations from a re-analysis of the deposited data

How the results depend on the processing

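Treatment called 0 members at stage 45, at stage 47, over both stages and for the difference between stages under every alternative run, leave-one-out runs and replicate blocks included. The stage change in controls called 3 members, and 5 with the replicate number as a block, 5 without both stage 45 libraries numbered 2, 1 with only the groups compared and 1 against a 1.2-fold threshold. Leaving out a library gave 1 to 4. In treated heads it called 1, and 2 with upper-quartile scaling, 3 with DESeq2, 4 with the block, 2 with only the groups compared and 3 without both stage 45 libraries numbered 2. Leaving out a library gave 1 to 3. The cause of these moves was not tested. Between the stages, deviations of same-numbered libraries correlated at 0.014 to 0.352 in controls and 0.04 to 0.562 in treated heads, not all over 0.1. Whether replicate numbers pair the stages is not settled by these values. With the replicate number as a block adam11.L and adam11.S were called in controls (adjusted p = 0.0371 and 0.047, edgeR). In treated heads that block called adamts1.S, adamts10.L and adamts2.S (adjusted p = 0.0176, 0.00991 and 0.0347, edgeR). Of the single-member values under alternatives, 612 stayed on their side of the threshold, 12 lost a call, 16 gained one and 0 reversed. The losses were adamts1.S and adamts10.L in controls, which also failed with only the groups compared (adjusted p = 0.0575 and 0.0542) and against a 1.2-fold threshold (0.134 and 0.119). The width of the intervals limits the treatment effects that can be seen. In the fit without pairing, the 95% interval at each stage lay within 1.5-fold for 15 of 53 members. The parts of depth, group size and pairing in this width were not tested.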

Other observations

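The row adam21.L, left out of the tests for its low counts, named after its values were seen, differed by replicate number more than by group. Its homologue in mammals is a testis ADAM. The libraries numbered 1 and 2 held 10 and 15 counts (control, stage 45), 8 and 10 (thioridazine, stage 45), 7 and 8 (control, stage 47) and 10 and 8 (thioridazine, stage 47). The libraries numbered 3 held 2, 1, 1 and 0 counts in the same order. Each library numbered 3 was thus at or under 3 counts, and no other library was. No test was made of this split.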
